A study of Homo sapiens with 8 samples.

Results

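The joint action of TrxR1 loss and glucose deprivation was measured in LN229-TAZ(4SA) cells as the departure of each gene from additive effects. For a gene, the departure is the log2 change with glucose deprivation in knockout cells minus the same change in control cells, from the means of 2 libraries per group. A value of 0 means that the fold changes of the 2 treatments multiply. A positive value means that the level in knockout cells without glucose lay above that product, called above additivity here, and a negative value that it lay below. The departure was taken for every gene whose mean log2 CPM (counts scaled to library size, on a log2 scale) over the 8 libraries was at least 0, which were 13057 of the 13730 genes in the table. All 8 of the 8 samples of the series enter it.

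LN229 is an established human glioblastoma line, and all groups carry the TAZ(4SA) construct named in the labels, TAZ being a transcriptional coactivator of the Hippo pathway. The 4 groups were control (EV) and TrxR1 knockout (KO) cells, each in regular medium (DMEM with serum) or in glucose-deprived medium, with 2 libraries per group. The columns read as glucose-deprived carry the header suffix GlcN, which also abbreviates glucosamine. They were read so because glucose deprivation is the other condition that the labels name, and every deprivation effect and departure given here rests on that reading. The letters a and b name the 2 libraries of each group and carry no order. The time without glucose and the number of knockout clones are not given in the sources used here, so other differences between the EV and KO lines cannot be told apart from TrxR1 loss. The labels do not say whether the 2 libraries of a group came from separate cultures, so p-values measure only the spread between libraries, which may be technical. The series asks how the 2 treatments act together on tumour cells.

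TrxR1, the product of TXNRD1, is the cytosolic selenoenzyme that passes electrons from NADPH to thioredoxin, which in turn reduces disulfide bonds in proteins. Glucose feeds the pentose phosphate pathway, a main source of that NADPH, so glucose deprivation bears on its supply and TrxR1 loss on its use. NADPH was not measured here. Several transcription factors answer cell stress. HSF1 drives cytosolic chaperone genes when proteins misfold, NRF2 drives antioxidant genes when the cysteines of its partner KEAP1 are modified, and ATF4 drives amino acid and endoplasmic reticulum (ER) stress genes when the initiation factor eIF2 is phosphorylated.

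Whole reads in the table summed to 70083018 to 107229069 per library, and 1 read was worth 0.00948 to 0.0143 CPM. Of glioma and mesenchymal markers, VIM lay at 2897 to 3696 CPM, CD44 at 996 to 1185 CPM and EGFR at 109 to 139 CPM in all libraries, while GFAP, the astrocyte filament, lay at 0.675 to 1.41 CPM. PTPRC, CD3E, PECAM1, VWF and CDH5, which mark leukocytes and endothelium, are not analysed here. Of 10 markers of leukocytes, endothelium and neurons, 5 were in the table, and they summed to 45.0 to 109.2 CPM per library. In bulk samples, fewer cells of a type and less RNA per cell cannot be told apart.

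TXNRD1 itself (chr12:104215779-104350307 on GRCh38) is also an NRF2 target. Its level was 263 and 261 CPM in EV cells and 245 and 249 CPM in KO cells in regular medium, and 509 and 493 CPM in EV cells and 370 and 351 CPM in KO cells without glucose. The knockout effect was not called in regular medium (log2 -0.08, limma adjusted p = 0.19), and was called lower without glucose (log2 -0.47, limma adjusted p = 2.0e-05). The departure was log2 -0.39 ± 0.05 (SE), with limma adjusted p = 0.0025. A read count over the whole gene does not show whether its coding sequence is disrupted, so these levels do not check the knockout labels.

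Departures from additivity were small beside the effect of medium. In the balanced layout of 4 groups, medium held 86.4% of the sum of squares over all genes tested, cell line 4.84%, the departure from additivity 3.15% and the spread between libraries 5.6%. The spread is pooled over 4 residual degrees of freedom, more than any other term has, so its share cannot be set directly against the departure's. The median absolute departure was 0.104 (log2), against a median absolute deprivation effect of 0.341 in EV cells and 0.313 in KO cells. The deprivation effects of the 2 cell lines, which share no library, had a Pearson r of 0.931 across the 13057 genes. Genes are not independent replicates, and this value is a description. The knockout effects in the 2 media, which share no library either, had an r of 0.218 across genes. Their median absolute sizes were smaller, 0.074 in regular and 0.0951 in glucose-deprived medium. How far the spread between libraries lowers this r was not tested.

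The limma test called 563 genes (4.31% of those tested) at an adjusted p under 0.05, with 301 above additivity (2.31%) and 262 below (2.01%). At an unadjusted p under 0.05 there were 3164 genes, 1528 above and 1636 below. The genes above additivity departed further: 96 of them were at least 1.5-fold above the additive level, against 15 at least 1.5-fold below it, and their median departures were 0.443 and -0.288. The largest called departures were 5.55-fold above and 5.86-fold below the additive level. The GC content of transcripts moved with the spread between libraries. Across 12784 genes, the difference between libraries a and b of the KO cells followed GC with r = 0.519 in regular medium and r = -0.412 in glucose-deprived medium, against 0.0143 and 0.122 in EV cells. With the trend of each library with GC removed, 725 genes were called above and 1054 below. Of the 563 genes called, 552 were still called in that setting. Their median GC content was 44.3% above and 52.0% below additivity, against 47.8% over all genes.

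For most genes the interval of the departure was narrow. The 95% confidence interval lay within 1.5-fold of additivity for 11109 genes (85.1%) and within 2-fold for 12633 genes (96.8%). Of the 11109 genes held within 1.5-fold, 368 were called, so their departures passed the test and were small.

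**Figure D1:**
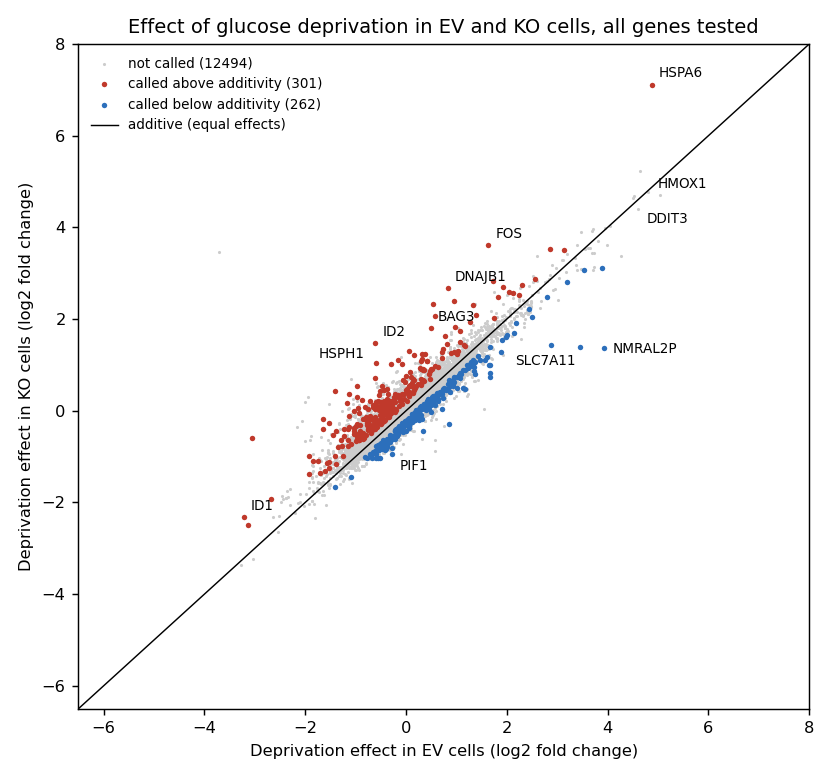
Log2 change with glucose deprivation in KO cells (vertical axis) against the same change in EV cells (horizontal axis), 1 point per gene, for 13057 genes. The line marks equal effects. Red points (301) were called above and blue points (262) below additivity by limma at an adjusted p under 0.05, and most genes lie along the line (r = 0.931).

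Among the 301 genes above additivity, the knockout effect most often appeared in glucose-deprived medium alone. It was called higher there and not called in regular medium for 197 genes (65.4%), it went from lower to not called for 40, and from lower to higher for 27. Over all genes tested, 7.25% had a called knockout effect in regular medium (3.87% higher and 3.38% lower) and 19.6% in glucose-deprived medium (9.04% higher and 10.6% lower). Deprivation effects were called for 76.2% in EV cells (37.5% higher and 38.7% lower) and 73.3% in KO cells (36.5% higher and 36.8% lower). These contrasts share libraries with the departure, so the split describes the called genes and is no separate support. Seen by medium, deprivation lowered 109 of the 301 genes in both lines, lowered 65 in EV cells with no call in KO cells, raised 67 in both lines, and lowered 31 in EV cells while raising them in KO cells. Both KO glucose-deprived libraries were the highest of all 8 for 114 genes (37.9%), where the share over all genes tested was 9.11%. The calls were made from the same libraries, so this difference is no separate support either.

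Among the 262 genes below additivity, the knockout effect was called lower in glucose-deprived medium and not called in regular medium for 181 (69.1%), and higher in regular medium with no call without glucose for 42. Deprivation raised 108 of the 262 in both lines and lowered 76 in both. Both KO glucose-deprived libraries were the lowest of all 8 for 113 genes (43.1%), where the share over all genes was 11.3%. This too describes the called genes only, since the calls were made from the same libraries. A departure also depends on the scale on which effects are added. When the 2 single effects were added in CPM in place of log2, all 301 genes above additivity stayed above, while 8 of the 262 below (3.05%) turned to above.

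Most heat shock genes were called above additivity, with a share of 81.5% against 2.31% over all genes tested. Their list is not only cytosolic, and also holds SERPINH1 of the ER and HSPE1 of the mitochondria. Of 27 members tested, 22 were called above and 0 below by limma (23 above and 0 below at an unadjusted p under 0.05), with a median departure of 0.597 against -0.00508 over all genes. The 5 members not called were HSF2, DNAJC7, HSPBP1, HSPB8 and HSF1, the transcription factor of the response, whose departure was 0.09 ± 0.10 (SE, limma adjusted p = 0.63). The summed level of the list fell from 13966 and 13928 CPM to 9169 and 9035 CPM when EV cells lost glucose, and went from 14743 and 15160 CPM to 16346 and 16150 CPM in KO cells. The count stayed between 20 and 22 with any library left out, and was 22 with the GC trend removed. HSPA1A, HSPA1B and HSPA1L are not analysed here.

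HSF1 binds repeats of the unit GAA in alternating orientation, the heat shock element. RefSeq windows from 250 bases before to 50 bases after a gene's start (GRCh38.p14) matched 10461 of the genes tested, some with several starts. The motif of 3 units (GAA, NN, TTC, NN and GAA in a row, N being any base), searched on either strand, was found in 50 of those 10461 genes (0.478%), in 9 of 20 called heat shock genes with a window (45.0%), in 1 of 228 genes above additivity outside the list (0.439%) and in 1 of 214 genes below (0.467%). The shorter motif GAANNTTC, which lies within the longer one, was found in 6.66% of all genes, 13.7% of those above and 7.01% of those below. Those above were 11 of 20 called heat shock genes (55.0%) and 23 of 228 genes outside the list (10.1%). Of 4 heat shock genes with a window that were not called, 0 held the longer motif and 1 the shorter. A match is a description and not a binding site. The 120 bases before the start of 4 heat shock genes above additivity are shown, 5′ to 3′ on the gene's strand, with the letters of the motif on either strand in capitals. HSPA6 (chr1:161524420-161524539, plus strand), CHORDC1 (chr11:90223050-90223169, minus strand) and SERPINH1 (chr11:75562133-75562252, plus strand) hold the longer motif, and DNAJB1 (chr19:14518398-14518517, minus strand, at 1 of its starts) holds the shorter motif at 2 places, 77 and 47 bases before the start.
HSPA6: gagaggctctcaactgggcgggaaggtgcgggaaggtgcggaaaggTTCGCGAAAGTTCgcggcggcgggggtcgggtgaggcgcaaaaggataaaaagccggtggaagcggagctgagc
CHORDC1: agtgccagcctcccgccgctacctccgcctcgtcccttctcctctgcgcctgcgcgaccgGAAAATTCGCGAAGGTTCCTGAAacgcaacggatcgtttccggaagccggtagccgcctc
SERPINH1: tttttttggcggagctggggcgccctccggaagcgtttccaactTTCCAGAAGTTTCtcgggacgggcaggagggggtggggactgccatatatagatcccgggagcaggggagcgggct
DNAJB1: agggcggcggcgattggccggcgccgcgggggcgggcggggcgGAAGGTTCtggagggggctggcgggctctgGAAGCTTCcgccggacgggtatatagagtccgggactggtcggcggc

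HSPA6 (chr1:161524540-161526894), a strictly stress-induced HSP70, had the largest departure of the list. Its level was 2.96 and 2.88 CPM in EV cells and 5.53 and 5.03 CPM in KO cells in regular medium, and 92.8 and 80.3 CPM in EV cells and 693 and 775 CPM in KO cells without glucose. The groups did not overlap, and the additive level would have been 155 CPM. The departure was log2 2.24 ± 0.11 (SE, limma adjusted p = 2.4e-06). HSPA6 shares sequence with other HSP70 genes, and how such reads were counted is not given in the sources used here. DNAJB1, the HSP40 that delivers clients to HSP70, lay at 213 and 214 CPM and at 238 and 231 CPM in regular medium (EV and KO), and at 386 and 372 CPM and at 1447 and 1532 CPM without glucose. Its KO glucose-deprived level was 3.58 times the additive 416 CPM (log2 1.84 ± 0.05, SE, limma adjusted p = 4.5e-08).

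HSPH1 moved in opposite directions in the 2 lines, and BAG3 rose in both. HSPH1, an HSP110 that recharges HSP70 with nucleotide, fell from 343 and 341 CPM to 227 and 228 CPM in EV cells, and rose from 354 and 359 CPM to 712 and 753 CPM in KO cells. Its departure was log2 1.63 ± 0.05 (SE, limma adjusted p = 4.5e-08). BAG3, which links HSP70 clients to autophagy, was 106 and 110.4 CPM (EV) and 125 and 118 CPM (KO) in regular medium, and 155 and 149 CPM and 417 and 435 CPM without glucose. That is 2.5 times its additive level of 170 CPM (log2 1.32, limma adjusted p = 1.2e-06).

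The following members were chosen after their values were seen. HSP90AA1, the inducible cytosolic HSP90, lay at 3239 and 3212 CPM and 3294 and 3540 CPM in regular medium (EV and KO), and at 2040 and 2055 CPM and 3818 and 3666 CPM without glucose. HSPE1, the mitochondrial chaperonin cofactor, went from 85.5 and 82.8 CPM to 43.3 and 43.9 CPM in EV cells, and from 82 and 90.5 CPM to 91.6 and 89.3 CPM in KO cells. DNAJA1, another HSP40, was lower without glucose in both lines, with 463 and 467 CPM against 176 and 178 CPM in EV cells and 499 and 524 CPM against 382 and 367 CPM in KO cells. All 3 lay above additivity, by log2 0.79, 1.02 and 0.95. Both KO glucose-deprived libraries were the highest of all 8 for HSP90AA1, and not for the other two. HSPB1, a small heat shock protein, CHORDC1, an HSP90 co-chaperone, and SERPINH1, a collagen chaperone of the ER, departed by log2 1.00, 0.84 and 0.70, and every one of these 6 genes was called with each library left out.

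**Figure D2:**
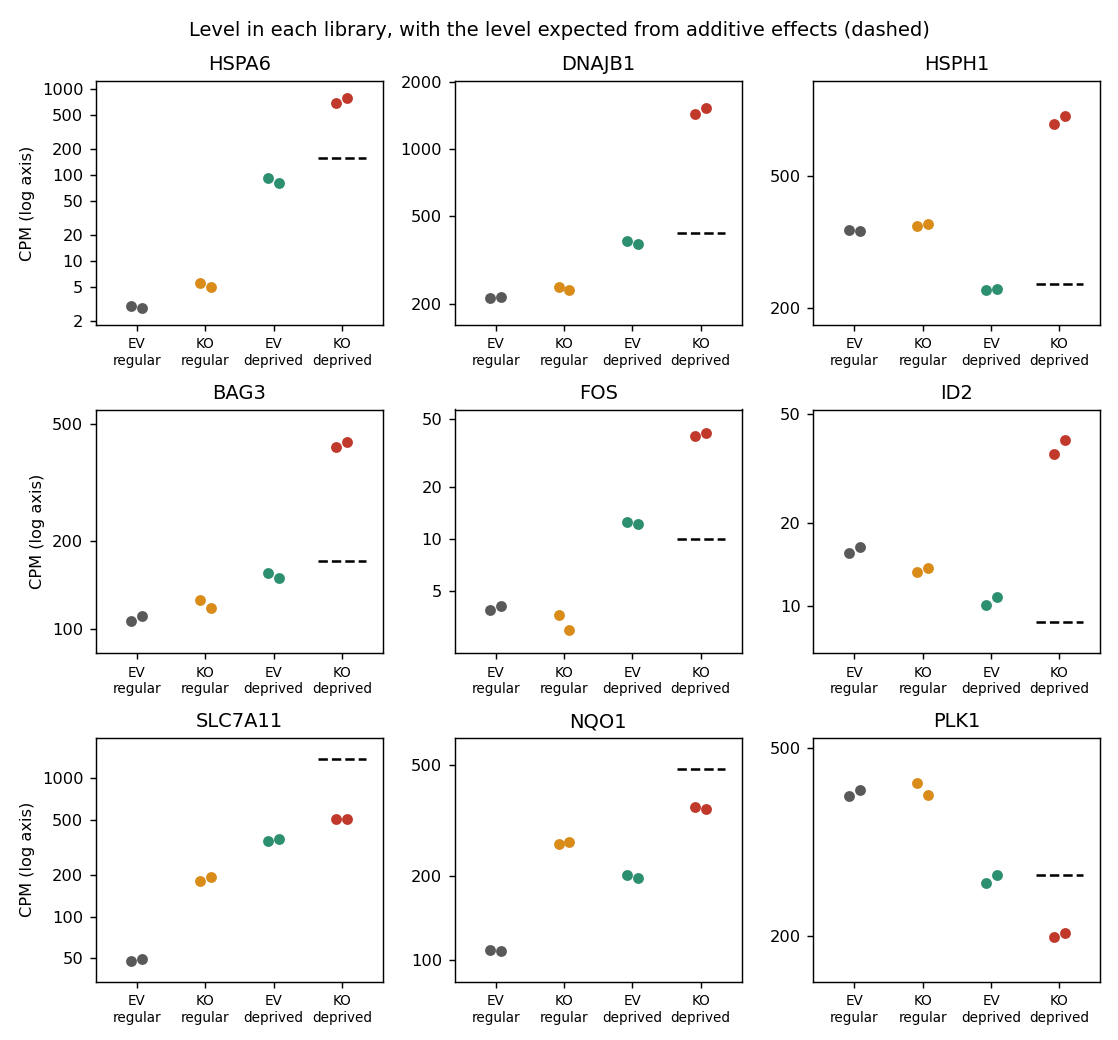
CPM of 9 genes in each of the 8 libraries (1 point per library, log axis, 2 libraries per group), with the level expected from additive effects in KO cells without glucose as a dashed line. In HSPA6, DNAJB1, HSPH1, BAG3, FOS and ID2 both KO glucose-deprived libraries lie above the dashed line, and in SLC7A11, NQO1 and PLK1 below it.

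About as many immediate early genes were called above additivity as were not. These genes are transcribed within minutes of a stimulus without new protein synthesis. Of 31 members tested, 16 were called above (51.6%, against 2.31% over all genes) and 1, KLF6, below (3.23%, against 2.01%). The median departure was 0.655. The count above was 12 without either library of the EV glucose-deprived group and 21 without library a of the KO glucose-deprived group or with the GC trend removed. FOS, a subunit of the AP-1 factor, lay at 3.91 and 4.11 CPM in EV cells and 3.63 and 2.99 CPM in KO cells in regular medium, and at 12.6 and 12.2 CPM and 39.6 and 41.4 CPM without glucose. Deprivation thus raised it in both lines, and its KO glucose-deprived level was 3.95 times the additive 10.1 CPM (log2 1.98 ± 0.12, SE, limma adjusted p = 1.8e-05). Its partner JUN went from 152 and 147 CPM to 103 and 105 CPM in EV cells and from 147 and 133 CPM to 160.4 and 219 CPM in KO cells. The KO glucose-deprived libraries of JUN differed from each other, and its call (log2 0.94, limma adjusted p = 0.0087) was lost without 1 of the 8 libraries, at an adjusted p of 0.051.

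Feedback genes of signalling were among those called above. DUSP1, a phosphatase that switches off MAP kinases, was 7.8 and 7.4 CPM (EV) and 7.95 and 7.09 CPM (KO) in regular medium, and 15.1 and 14.4 CPM and 38.9 and 40.1 CPM without glucose. RGS2, which shortens G protein signals, was 8.28 and 7.57 CPM and 8.37 and 8.64 CPM in regular medium, and 11.2 and 12.5 CPM and 35.2 and 36.7 CPM without glucose. Neither had a called knockout effect in regular medium, and without glucose they were 2.71 and 2.83 times their additive levels (log2 1.44 and 1.5). IER5, chosen after its values were seen and known to bear on HSF1 activity, was 56.0 to 62.0 CPM in the other 6 libraries and 126 and 155 CPM in the KO glucose-deprived ones. ATF3, an early gene that ATF4 also drives, departed by log2 0.45 ± 0.06 (SE, limma adjusted p = 0.0019), from 85.7 and 85.4 CPM in EV cells to 140 and 147 CPM in KO cells without glucose.

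Some large estimates among early genes rested on libraries that differed. IER5L was 7.54 and 17.1 CPM in the 2 KO glucose-deprived libraries, between its values in the other groups (4.16 to 13.7 CPM) and above them, and its departure of log2 1.84 ± 0.42 (SE, limma adjusted p = 0.038) was called with only 2 of the 8 libraries left out in turn. CRK, an adaptor of receptor tyrosine kinases outside the list, was 4.07 and 7.91 CPM there, and its call (log2 1.48, limma adjusted p = 0.043) was likewise lost on leaving out 6 of the 8. EGR3, an early zinc finger factor, fell from 34.8 and 32.9 CPM to 15.5 and 15.3 CPM in EV cells and was 26.0 and 19.9 CPM, then 26.9 and 32.1 CPM, in KO cells. Its departure of log2 1.51 was called with each library left out. EGR1, of the same family, departed by log2 0.55 (limma adjusted p = 0.04) and lost its call on leaving out 5 of the 8 libraries.

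Inhibitor of DNA binding (ID) genes and other targets of bone morphogenetic protein (BMP) signalling formed a further group above additivity, with 7 of 10 tested called above and 0 below by limma (also 7 and 0 at an unadjusted p under 0.05) and a median of 0.577. The count was 3 without either library of the EV regular group, and 4 without either EV glucose-deprived library. With all 8 libraries the share above was 70.0%, against 2.31% over all genes tested. ID proteins bind basic helix-loop-helix factors and block differentiation. ID2 fell from 15.6 and 16.4 CPM to 10.1 and 10.8 CPM in EV cells without glucose, and rose from 13.3 and 13.8 CPM to 35.7 and 40 CPM in KO cells. Its departure of log2 2.09 ± 0.09 (SE, limma adjusted p = 1.2e-06) was above that of the other list members.

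ID1 and ID3, chosen after their values were seen, showed another form of departure. ID1 went from 141 and 134 CPM to 14.4 and 14.9 CPM in EV cells and from 115 and 104 CPM to 18.5 and 25.8 CPM in KO cells. ID3 went from 201 and 205 CPM to 21.0 and 25.7 CPM and from 177 and 160 CPM to 27.0 and 33.2 CPM. Both fell steeply without glucose in each line, less so in KO cells, by log2 0.90 and 0.64, and their calls were lost on leaving out 4 and 6 of the 8 libraries. SNAI1, an epithelial-mesenchymal transition factor outside these lists, was 36.2 and 37.1 CPM (EV) and 36.2 and 33.1 CPM (KO) in regular medium, and 24.1 and 23.7 CPM and 56.3 and 57.4 CPM without glucose. Its departure was log2 1.33 ± 0.07 (SE, limma adjusted p = 4.1e-06).

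**Figure D3:**
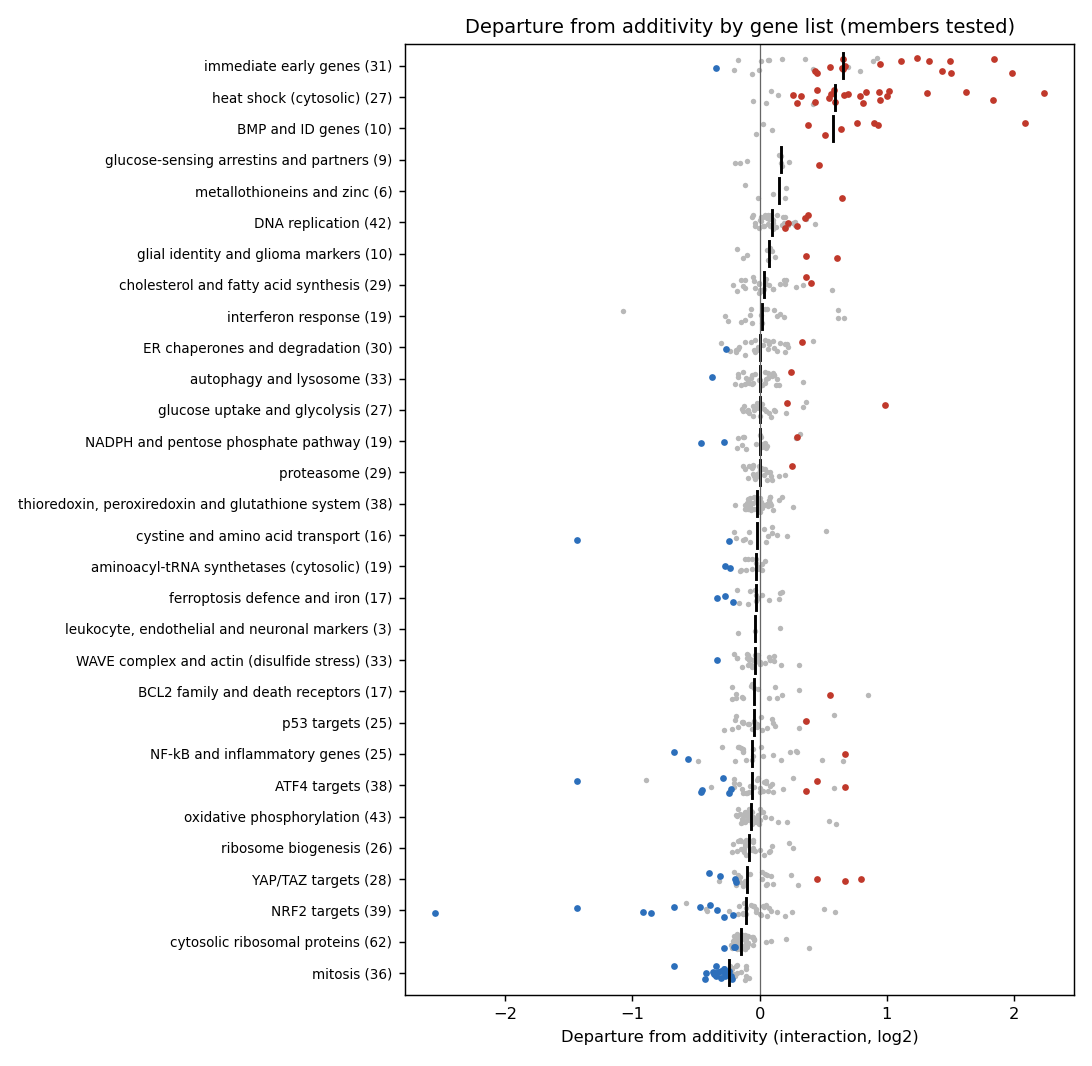
Departure from additivity (log2) of each tested member of 30 gene lists, 1 point per gene, with the list median as a black bar and the number tested in parentheses. Red and blue points were called above and below additivity. Immediate early, heat shock and BMP and ID genes have the highest medians (0.655, 0.597 and 0.577) and mitosis genes the lowest (-0.239).

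The NRF2 targets that were called lay below additivity, and most targets were not called. Their share below was 25.6%, against 2.01% over all genes tested. Of 39 tested, 10 were called below additivity and 0 above by limma (17 and 2 at an unadjusted p under 0.05), with a median of -0.106, and the count below was 8 to 11 with any library left out. With the GC trend removed, 14 were below and 1 above. The summed level of the list, 40 genes in the table, was 3721 and 3683 CPM in EV cells and 5992 and 5978 CPM in KO cells in regular medium, and 6944 and 6971 CPM and 10616 and 10666 CPM without glucose. Each treatment alone gave a higher sum, and the combination the highest. SLC7A11 (chr4:138164097-138242349), the cystine importer chain of system xc-, was 48.2 and 49.3 CPM in EV cells and 180 and 194 CPM in KO cells in regular medium, and 351 and 364 CPM and 510 and 503 CPM without glucose. All groups were apart, and the knockout effect went from log2 1.94 to 0.50, a departure of -1.44 ± 0.06 (SE, limma adjusted p = 7.4e-07). SLC7A11 is also counted among the ATF4 targets and the amino acid transporters.

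NMRAL2P, a pseudogene induced by NRF2, had the lowest called estimate of all genes with a group mean of at least 10 CPM. It was 0.931 and 1.18 CPM in EV cells and 11 and 12.1 CPM in KO cells in regular medium, and 15.8 and 16.7 CPM and 29 and 30.6 CPM without glucose, which is log2 -2.55 ± 0.15 (SE, limma adjusted p = 8.0e-06). OSGIN1, an oxidative stress growth inhibitor, was 9.37 and 9.66 CPM and 33.3 and 32.6 CPM in regular medium, and 29.8 and 31.0 CPM and 54.6 and 61.8 CPM without glucose. NQO1, a quinone reductase, was 108 and 108 CPM and 261 and 265 CPM, then 201 and 197 CPM and 353 and 348 CPM. In each of these genes KO cells without glucose were highest and yet below the product of the single folds, by log2 0.85 in OSGIN1 and 0.47 in NQO1. TRIM16 and TRIM16L, near copies whose reads may be split between them, lay 1.6 and 1.89 times below the additive level.

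On the linear scale these departures were close to 0. SLC7A11 reached 506 ± 4.8 CPM (SD, n = 2), where adding the single effects in CPM gives 496 CPM, a difference of 10.3 ± 10.2 CPM (SE from the spread of the 2 libraries in each group). The same difference was -3.42 ± 4.19 CPM for NQO1, 0.258 ± 1.36 CPM for TRIM16L, 1.15 ± 1.33 CPM for TRIM16 and 4.41 ± 3.67 CPM for OSGIN1. NMRAL2P, at 3.10 ± 1.07 CPM, lay above linear additivity. The ferritin chains FTL and FTH1, which store iron, were below additivity on the log2 scale (-0.34 and -0.21) and above it in CPM, by 191 ± 23.3 and 205 ± 27.2. TXNRD1 and the pentose phosphate enzyme TKT lay below on both scales, by 126 ± 12.9 and 97.5 ± 16.2 CPM. The log2 calls of FTH1 and TKT were lost on leaving out 5 and 3 of the 8 libraries.

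HMOX1, the heme oxygenase that NRF2 drives when the repressor BACH1 leaves its promoter, had no called departure on the log2 scale. It was 9.31 and 9.80 CPM in EV cells and 42.3 and 39.7 CPM in KO cells in regular medium, and 278 and 259 CPM and 1104 and 1154 CPM without glucose. The observed 1129 ± 35 CPM (SD, n = 2) stood beside an additive log2 expectation of 1149 CPM, a departure of -0.03 with a 95% interval from -0.18 to 0.13 (limma adjusted p = 0.86). Added in CPM, the single effects give 299.8 CPM, so that HMOX1 was 829 ± 26.6 CPM above linear additivity. Other targets not called were GCLM (-0.11, with an interval from -0.24 to 0.03) and SRXN1 (-0.07, from -0.18 to 0.03). With the GC trend removed GCLM was called below (-0.17, limma adjusted p = 0.014). SQSTM1 (-0.13) and GCLC (0.09), chosen after their values were seen, were not called either. The motif TGACNNNGC, the antioxidant response element core, was found on either strand in 1 of 6 called NRF2 targets with a promoter window, in 9 of 23 not called and in 19.5% of all genes.

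**Figure D4:**
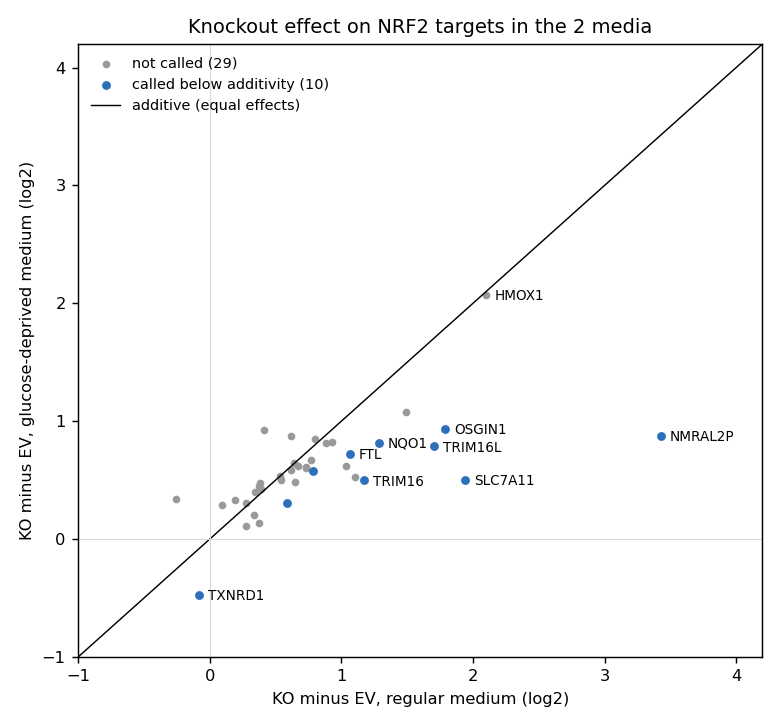
Knockout effect (KO minus EV, log2) on 39 NRF2 targets in glucose-deprived medium (vertical axis) against regular medium (horizontal axis), 1 point per gene. The line marks equal effects, the 10 blue points were called below additivity, and HMOX1 (2.10 and 2.07) lies on the line while SLC7A11 (1.94 and 0.50) lies under it.

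Genes of the rest of the thioredoxin and glutathione system did not show a called departure, where 4.31% of all genes tested did. Of 38 tested, 0 were called by limma in either direction (0 above and 1 below at an unadjusted p under 0.05, and 2 called below with the GC trend removed), and their estimates ran from -0.19 for TXNIP to 0.26 for TXNRD3. TXNIP, the thioredoxin-binding arrestin that glucose induces, went from 85.5 and 87.1 CPM to 11 and 9.91 CPM in EV cells and from 77.3 and 81.9 CPM to 8.46 and 8.43 CPM in KO cells (departure -0.19 ± 0.08, SE, limma adjusted p = 0.18). ARRDC4, its paralog, departed by 0.15 ± 0.17 (SE, limma adjusted p = 0.62). Its 95% interval ran from -0.22 to 0.53.

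Mitosis genes had negative estimates, and about as many were called as were not. The share called below was 52.8%, against 2.01% over all genes tested. Of 36 tested, 19 were called below and 0 above by limma (31 and 0 at an unadjusted p under 0.05), the median was -0.239, and the estimate was negative for all 36. The count depends on the libraries: it was 5 without library b of the EV glucose-deprived group or library a of the EV regular group, 6 and 7 without the other library of those groups, and 25 without library a of the KO glucose-deprived group. With the GC trend removed it was 34, and the estimates' sign was the same in their median (-0.26). PLK1, the kinase that drives entry into and passage through mitosis, was 395 and 407 CPM (EV) and 421 and 397 CPM (KO) in regular medium, and 260 and 270 CPM and 199.8 and 203 CPM without glucose. The lines overlapped in regular medium and were apart without glucose, with KO cells lower (departure -0.42 ± 0.05, SE, limma adjusted p = 0.0024).

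CDCA8, of the chromosomal passenger complex, was 182 and 185 CPM and 199 and 197 CPM in regular medium, and 138 and 139.6 CPM and 114 and 109 CPM without glucose. PIF1, a DNA helicase expressed in dividing cells, went from 34.2 and 35.5 CPM to 28.8 and 29 CPM in EV cells and from 37.7 and 37.2 CPM to 19.7 and 19.2 CPM in KO cells. Both KO glucose-deprived libraries were the lowest of all 8 for both genes. Of genes chosen after their values were seen, the proliferation marker MKI67 departed by -0.37, the cyclin CCNB1 by -0.34 and the kinesin KIF20A by -0.37, and the latter 2 lost their call on leaving out 2 and 3 of the libraries. The summed level of the mitosis list was 11325 to 11659 CPM in the 4 regular libraries, 9552 and 9830 CPM in EV cells and 8262 and 7884 CPM in KO cells without glucose.

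DNA replication genes had estimates mostly in the other direction, and 11.9% were called above, against 2.31% over all genes tested. Of 42 tested, 5 were called above and 0 below by limma (18 and 0 at an unadjusted p under 0.05), the median was 0.098, and 37 estimates were positive. The count above was 1 without library b of the EV glucose-deprived group or either EV regular library, 2 without library a of the EV glucose-deprived group, 11 without library a of the KO glucose-deprived group, and 18 with the GC trend removed. MCM6, a subunit of the replicative helicase, went from 206 and 197 CPM to 112 and 112 CPM in EV cells and from 176 and 181 CPM to 128 and 127 CPM in KO cells. Deprivation lowered it in both lines, less in KO cells (departure 0.36 ± 0.05, SE, limma adjusted p = 0.0036).

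Genes of the integrated and ER stress responses had large deprivation effects and list medians of the departure near 0. Of ER chaperone and degradation genes 3.33% were called each way, near the 2.31% above and 2.01% below over all genes tested. ER chaperone and degradation genes had a median deprivation effect of log2 2.01 in EV cells and 1.86 in KO cells, and a median departure of 0.005 over 30 members, with 1 called above and 1 below (5 and 5 without library a of the KO glucose-deprived group, 4 and 5 with the GC trend removed). HSPA5, the HSP70 of the ER lumen, went from 975 and 958 CPM to 9041 and 8551 CPM in EV cells and from 750 and 741 CPM to 8152 and 7705 CPM in KO cells. Its departure of 0.23 ± 0.06 (SE) had limma adjusted p = 0.051, and was called without either KO glucose-deprived library (limma adjusted p = 0.036 and 0.020), under another filter on low values and with the GC trend removed (limma adjusted p = 0.011). XBP1, a transcription factor of the unfolded protein response, was called above (0.33, limma adjusted p = 0.003), at 418 and 409 CPM in EV cells and 491 and 486 CPM in KO cells without glucose. SYVN1, the ubiquitin ligase of ER-associated degradation, was called below (-0.27, limma adjusted p = 0.033), at 525 and 496 CPM against 412 and 414 CPM, and lost its call on leaving out 6 of the 8 libraries.

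Of 38 ATF4 targets, 3 were called above (7.89%, against 2.31% over all genes) and 6 below (15.8%, against 2.01%), with a median of -0.06. With the GC trend removed these were 5 and 11, and the 6 below were 3 without library a of the EV glucose-deprived or the EV regular group. DDIT3, the stress factor CHOP, went from 17.4 and 17.6 CPM to 435 and 417 CPM in EV cells and from 19.3 and 19.0 CPM to 419 and 393 CPM in KO cells, with a departure of -0.20 ± 0.06 (SE, limma adjusted p = 0.084). It was called below without library a of the KO glucose-deprived group (limma adjusted p = 0.025) and with the GC trend removed (limma adjusted p = 0.028). CHAC1, which degrades glutathione, was 10.8 and 10.2 CPM and 15.5 and 14.8 CPM in regular medium, and 109 and 107 CPM and 150.0 and 158 CPM without glucose. The 154 ± 5.8 CPM (SD, n = 2) seen in KO cells without glucose stood beside 155 CPM from the product of the folds, and the 95% interval of the departure ran from -0.16 to 0.14. TRIB3, SEL1L, CRELD1 and PDIA4 were the other genes with a deprivation effect of at least log2 2 in EV cells and the narrowest intervals around 0, with departures of -0.02, -0.03, -0.02 and 0.06.

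ATF4 itself departed by -0.29 (limma adjusted p = 0.0085), STC2, a secreted glycoprotein, by -0.45, and ALDH1L2, a mitochondrial folate enzyme, by -0.46. ATF4 lost its call without 2 of the 8 libraries. DDIT4, which restrains the growth kinase mTORC1, was called above (0.67 ± 0.08, SE, limma adjusted p = 0.0013). It was 79.9 and 77.0 CPM and 64.2 and 59.6 CPM in regular medium, and 282 and 272 CPM and 329 and 368 CPM without glucose, so that KO cells were lower with glucose and higher without. SESN2, a leucine sensor and stress gene, was called above by 0.37, at 222 and 214 CPM against 285 and 303 CPM without glucose, and lost its call on leaving out 2 of the 8 libraries.

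Of 28 YAP/TAZ targets, 3 were called above and 4 below, with 1 and 1 without either EV regular library, 4 and 7 without library a of the KO glucose-deprived group, and 3 and 10 with the GC trend removed. The shares with all 8 libraries were 10.7% above and 14.3% below, against 2.31% and 2.01% over all genes tested. Of the 3 above, GADD45B was 23.7 and 23.4 CPM (EV) and 28.1 and 30.7 CPM (KO) in regular medium. Without glucose GADD45B was 31.9 and 30.9 CPM (EV) and 57.9 and 67.1 CPM (KO), a departure of 0.67 ± 0.10 (SE, limma adjusted p = 0.0043). The next 2 genes are among the 4 below. CCN1, a matricellular target of TAZ, was 137 and 139.9 CPM (EV) and 186 and 186 CPM (KO) in regular medium. Without glucose CCN1 was 144 and 144 CPM (EV) and 142 and 151 CPM (KO). The knockout effect seen with glucose (log2 0.42) was thus 0.03 without it, a departure of -0.40 ± 0.05 (SE, limma adjusted p = 0.0026). CCN2, of the same family, departed by -0.31, and its call was lost on leaving out 3 of the 8 libraries. In the list of WAVE complex and actin genes, whose proteins are targets of disulfide stress, 1 of 33 was called, below additivity. That share of 3.03% was near the 2.01% over all genes tested. With the GC trend removed 4 were called below, where 1054 of all genes were. The called gene was ACTG1, cytoplasmic gamma actin, at 4989 and 5009 CPM and 5431 and 5447 CPM in regular medium, and 4661 and 4672 CPM and 4026 and 4004 CPM without glucose (-0.34 ± 0.04, SE, limma adjusted p = 0.0024).

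Other lists held few called members, beside 2.31% above and 2.01% below over all genes tested. Some shares lay near these, such as proteasome genes (3.45% above) and autophagy and lysosome genes (3.03% each way). Others lay over them on few genes, such as glucose uptake and glycolysis (7.41% above), cytosolic tRNA synthetases (10.5% below) and NADPH genes (10.5% below). Glucose uptake and glycolysis had 2 of 27 above (5 with the GC trend removed), among them PDK4, a kinase that blocks pyruvate oxidation, at 5.51 and 5.61 CPM in EV cells and 7.90 and 8.54 CPM in KO cells without glucose (0.99 ± 0.13, SE, limma adjusted p = 0.0025). BCL2 family and death receptor genes had 1 of 17 above, the BH3-only gene BCL2L11, at 19.5 and 19.1 CPM against 27.1 and 28.9 CPM without glucose (0.56, limma adjusted p = 0.0028). NF-kB genes had 1 of 25 above and 2 below, the cytokine LIF being below by -0.57, at 583 and 571 CPM in EV cells and 476 and 448 CPM in KO cells without glucose. Cytosolic ribosomal proteins had 3 of 62 below, with 33 without library a of the KO glucose-deprived group, 27 with the GC trend removed, and 0 without its library b or any of the 4 EV libraries. Of the ribosomal estimates 58 of 62 were negative, with a median of -0.147 (36 below and 1 above at an unadjusted limma p under 0.05). Small counts were also seen in cytosolic tRNA synthetases (0 above and 2 below of 19) and cholesterol and fatty acid synthesis (2 above of 29, IDI1 and INSIG1). The NADPH and pentose phosphate genes (1 above and 2 below of 19) and autophagy and lysosome genes (1 above and 1 below of 33) had few as well. So did p53 targets (1 above of 25, SESN2) and proteasome genes (1 above of 29, PSMD12). Several of these counts rested on single libraries. Without any of the 4 EV libraries in turn, the tRNA synthetase and cholesterol counts were 0. IDI1, INSIG1 and PSMD12 lost their calls on leaving out 5, 4 and 6 of the 8 libraries. Without library a of the KO glucose-deprived group, 4 tRNA synthetases were called below, 5 cholesterol genes and 3 proteasome genes above, and 2 p53 targets above and 3 below. None of the oxidative phosphorylation genes (0 of 43), interferon response genes (0 of 19) and ribosome biogenesis genes (0 of 26) was called by limma, with 11, 5 and 8 of them at an unadjusted p under 0.05 in either direction. Over all genes tested, 3164 of 13057 were under that unadjusted p, a share near those of the 3 lists. Without library a of the KO glucose-deprived group, the oxidative phosphorylation list had 4 called above and 4 below, the interferon list 2 above and the ribosome biogenesis list 1 above and 3 below. With the GC trend removed these were 3 and 3, 0 and 2, and 1 and 3.

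The number of called genes depended on single libraries. It was 147 without library a of the EV regular group and 1579 without library a of the KO glucose-deprived group. With each of the 8 libraries left out in turn, 123 of the 563 genes (21.8%) were called every time, 86 above and 37 below. All 4 of HSPA6, DNAJB1, HSPH1 and BAG3 were among them, as were FOS, ID2, SNAI1, SLC7A11, NQO1 and PLK1.

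**Figure D5:**
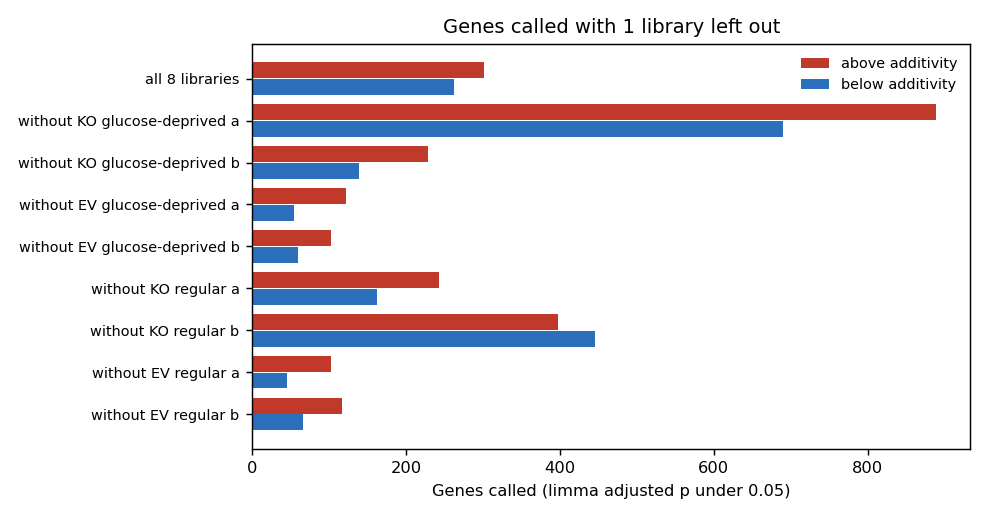
Number of genes called above (red) and below (blue) additivity with all 8 libraries (301 and 262) and with each library left out in turn. The counts above run from 102 to 889 and those below from 45 to 690, with both highest when library a of the KO glucose-deprived group is left out.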

How the data were processed

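RNA was measured in 8 samples, 4 groups of 2. Per the labels' protocols, TRIzol-extracted total RNA went into libraries by SMART-Seq and Nextera XT. These are not stranded, so reads of overlapping genes on opposite strands are mixed. The authors used HISAT2, edgeR and GRCh38 per the submitters' processing notes; versions, counting tool and annotation are not given in the sources used here. The deposited values are log2 CPM per the values themselves: 2 to the power of a value, less an offset of 0.023 CPM, is a whole multiple of 1 read for 100% of genes within a tolerance of 0.05. CPM printed here are those powers with the offset removed. Column headers give the group and no replicate number. Headers ending in GlcN, which also abbreviates glucosamine, were read as glucose-deprived, the other condition the labels name.

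A model of the 4 group means was fitted to the deposited log2 values (limma 3.58.1, R 4.3.3) with a variance trend, 4 residual and 6.29 prior degrees of freedom. Tests were two-sided, with Benjamini-Hochberg adjustment over 13057 genes; 673 genes below the filter were left out. Standard errors are moderated. The script was tested on simulated data. The members and gene lists were chosen with earlier results of these data known. Lists are described by counts and medians, with no set test. Named genes are a panel of 25, the 12 largest called departures in each direction with a group mean of at least 10 CPM, up to 3 called members per list, and 5 genes closest to additive among those with a deprivation effect of at least 2. Other genes are said to have been chosen after their values were seen. Alternatives were other filters, no variance trend, another pseudocount and scaling, each library left out, and, added after seeing the data, removal of each library's GC trend (loess, span 0.5). Gene coordinates and promoter windows are from RefSeq on GRCh38. GC content is that of the longest GENCODE transcript of each gene.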

Additional observations from a re-analysis of the deposited data

Results flagged for a closer look

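The change with glucose deprivation differed between EV and KO cells, by the limma test of the departure itself (adjusted p under 0.05), for 85 genes named here, and each value is that departure on the log2 scale. Among heat shock genes, it was 2.24 for HSPA6, 1.84 for DNAJB1, 1.63 for HSPH1, 1.32 for BAG3, 1.02 for HSPE1, 1.00 for HSPB1, 0.95 for DNAJA1, 0.84 for CHORDC1, 0.79 for HSP90AA1 and 0.70 for SERPINH1. Among immediate early genes, it was 1.98 for FOS, 1.84 for IER5L, 1.51 for EGR3, 1.5 for RGS2, 1.44 for DUSP1, 1.24 for IER5, 0.94 for JUN, 0.67 for GADD45B, 0.55 for EGR1 and 0.45 for ATF3. Among ID and BMP genes, it was 2.09 for ID2, 0.93 for ID4, 0.90 for ID1, 0.64 for ID3 and 0.38 for BAMBI. Among NRF2 targets, iron genes and cystine transport, it was -2.55 for NMRAL2P, -2.06 for SLC7A11-AS1, -1.44 for SLC7A11, -0.92 for TRIM16L, -0.85 for OSGIN1, -0.68 for TRIM16, -0.47 for NQO1, -0.39 for TXNRD1, -0.34 for FTL, -0.28 for TKT, -0.27 for STEAP3, -0.24 for SLC7A1 and -0.21 for FTH1. Among mitosis and replication genes, it was -0.67 for PIF1, -0.43 for CDCA8, -0.42 for PLK1, -0.37 for KIF20A, -0.37 for MKI67, -0.34 for CCNB1, 0.36 for MCM6, 0.30 for SLBP and 0.20 for MCM4. Among ATF4, tRNA synthetase and ER genes, it was -0.46 for ALDH1L2, -0.45 for STC2, -0.29 for ATF4, -0.27 for SARS1, -0.27 for SYVN1, -0.23 for AARS1, 0.67 for DDIT4, 0.37 for SESN2 and 0.33 for XBP1. Among TAZ, actin, glial and inflammatory genes, it was -0.40 for CCN1, -0.31 for CCN2, -0.34 for ACTG1, 0.36 for SOX2, 0.61 for MAF, 0.67 for NFKBIZ, -0.68 for BIRC3 and -0.57 for LIF. Among metabolic, autophagy and other list genes, it was 0.99 for PDK4, 0.22 for SLC16A1, 0.29 for IDH1, 0.40 for IDI1, 0.37 for INSIG1, 0.46 for KLF10, 0.65 for SLC30A1, 0.25 for MAP1LC3B, -0.38 for WIPI1, 0.56 for BCL2L11, 0.26 for PSMD12, -0.21 for RPL37, -0.28 for RPS28 and -0.20 for RPS16. Outside the lists, it was 1.48 for CRK, 1.35 for DLX2, 1.33 for SNAI1, -1.16 for CNOT3, -0.76 for LINC01583, -0.68 for KCNE4 and -0.53 for MYEOV. The direction is higher or lower in KO cells without glucose than the product of the single folds, in the mean of 2 libraries. The calls are not equally firm. Those of AARS1, IDH1, SLC16A1, BIRC3, SARS1, KCNE4, LINC01583 and DLX2, among others, were lost when some single libraries were left out. Those of HSPA6 and DNAJB1 were not. No group has 4 or more libraries, so none was examined for a library that stands apart by that measure.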

How the results depend on the processing

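With all 8 libraries 563 genes were called, 301 above and 262 below. Another filter on low values, log2(CPM + 1) and median-of-ratios scaling gave 545 to 606 calls. Without the variance trend there were 223 calls, 152 above and 71 below, and with the GC trend of each library removed there were 1779, 725 above and 1054 below. With each library left out in turn, the calls ran from 147 to 1579, those above from 102 to 889 and those below from 45 to 690. The cause was not tested. A group left with 1 library is assumed to vary like the others. The number of genes held near additivity by their interval stayed within 1.5 times its value under the other filters, without the variance trend and with each library left out, and was not recomputed under the other settings. Of 72 genes that the naming rule gave and limma called, 39 were called in all of these alternatives, and no estimate of the 72 reversed its sign on the log2 scale. On the linear scale, 8 of the 262 genes called below turned to above. No paired analysis was possible because the columns carry no replicate numbers. Tests with edgeR or DESeq2 on reads recovered from the values were not run. With 2 libraries per group, the median standard error of a departure was 0.0773 (log2), which limits what small departures can be called.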

Other observations

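SLC7A11-AS1, chosen after its values were seen, overlaps SLC7A11 on chromosome 4 (138089014 to 138178177, against 138164097 to 138242349). It was 0.315 and 0.313 CPM in EV cells and 1.82 and 1.41 CPM in KO cells in regular medium, and 3.43 and 3.96 CPM and 4.11 and 4.43 CPM without glucose, a departure of log2 -2.06. The libraries do not mark strand, so reads in the stretch that both genes cover cannot be assigned to either by strand.

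Among genes outside the lists described, CNOT3, a subunit of the CCR4-NOT deadenylase, was 5.86 and 5.73 CPM and 10.6 and 8.02 CPM in regular medium, and 12.1 and 9.24 CPM and 6.72 and 8.36 CPM without glucose, a departure of log2 -1.16 that was lost on leaving out 3 of the 8 libraries. MYEOV, a gene often amplified with cyclin D1, was 164 and 168 CPM and 197 and 189 CPM in regular medium, and 139.8 and 134 CPM and 114 and 107 CPM without glucose. SLC30A1, a zinc exporter, fell from 28.6 and 27.5 CPM to 14.2 and 13.4 CPM in EV cells and from 23.0 and 22.4 CPM to 16.2 and 18.8 CPM in KO cells. SOX2, a stem cell factor of glioma, was 54.3 and 56.0 CPM and 39.5 and 38.0 CPM in regular medium, and 16.9 and 16.7 CPM and 15.1 and 15.2 CPM without glucose.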
